A study of Mus musculus with 12 samples.

Results

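The genes described here are transcription factors and hormone receptors that define and drive the Sertoli cell, the somatic nurse cell of the seminiferous tubule. They were chosen by symbol, as the rows named Sox9, Wt1, Gata4, Gata6, Nr5a1, Nr0b1, Dmrt1, Tcf21 and Fshr in the deposited expression table. Of these 9 genes, 6 had a row among the 17995 genes of the table. Dmrt1, Tcf21 and Fshr were not analysed here.

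In the embryonic gonad, WT1 and GATA4 act in the coelomic epithelium and its descendants, where they keep the gonadal ridge alive and switch on Nr5a1, which encodes the nuclear receptor SF-1. SF-1 then acts with SRY on enhancers of Sox9, the gene whose product commits supporting cells to the Sertoli fate. In the postnatal testis, WT1, SOX9, GATA4 and DMRT1 maintain that fate, and the FSH receptor, a G protein-coupled receptor found on Sertoli cells, passes the pituitary signal to cyclic AMP and protein kinase A.

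The 12 RNA-seq libraries came from 2 mouse cell lines, for which the labels write the strain as IRC. C18-4 cells are immortalised descendants of type A spermatogonia and served as the spermatogonial stem cell model, and TM4 cells are a line of Sertoli cell origin. In each line, 3 libraries came from cells given shM5, a mixture of 3 shRNAs against the muscarinic acetylcholine receptor gene Chrm5 (M5), and 3 from cells given the control shRNA shNC, so that all cells, controls included, carried a lentiviral shRNA. Each cell type was thus represented by 1 line, and the difference between cell types cannot be told apart from the history of the lines, nor, in bulk RNA, fewer cells expressing a gene from less RNA per cell. Nothing in the labels says that replicates were separate cultures, so p-values measure the spread between these libraries, which may be technical.

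All values are RPKM, read numbers scaled to transcript length and to the mapped reads of the library, which are per length and can be set side by side between genes. Totals over all genes ranged from 506413 to 540231 RPKM per library, and 13625 to 14566 genes were above 0. Chrm5, the target of shM5, was at 0.01 RPKM in 1 library each of C18-4 shNC and TM4 shNC and at 0 in the other libraries, so the knockdown could not be checked from its RNA. The study reported less M5 protein after shM5 in both lines, by immunofluorescence. The 3 TM4 shNC libraries did not lie together. TM4 shNC replicate 3 differed from TM4 shNC replicates 1 and 2 by a root mean square of 0.63 and 0.631 (log2, over genes that averaged 0.5 RPKM or more), and from the 3 TM4 shM5 libraries by only 0.227 to 0.269. Between TM4 shNC replicates 1 and 2 this distance was 0.211. From these replicates to the TM4 shM5 libraries it was 0.649 to 0.662. Replicate 3 thus lay with the shM5 libraries, and replicates 1 and 2 lay apart as a pair. Results that rest on TM4 shNC replicate 3 are given with and without it. Without it, only that pair stands for TM4 shNC.

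The labelled cell types were checked against marker genes. Of 8 Sertoli cell markers, 6 were listed, and C18-4 cells, the line labelled as germ cells, held Wt1, Gata4 and Clu (clusterin, a secreted chaperone of Sertoli cells) at a mean of at least 1 RPKM, with a summed marker level of 71.8 to 83.7 RPKM per library. TM4 cells held only Sox9 and Gata4 at that level, and the sum was 6.12 to 14.4 RPKM. Most of the C18-4 sum was Wt1, at 53.93 to 72.32 RPKM. Sox9, Wt1 and Gata4 are both markers and genes of the set, so this check is not independent of the comparison of the lines below. Amh, encoding anti-Müllerian hormone, was at most 0.19 RPKM in all 12 libraries. Of 12 germ line markers listed, Id4 and Uchl1 reached 1 RPKM in C18-4 cells, where the germ cell helicase gene Ddx4 was at most 0.05 RPKM and Kit and Stra8 were listed at 0. None of the 12 reached 1 RPKM in TM4 cells, and 8 were at 0 in all 6 TM4 libraries. Markers of interstitial mesenchyme were abundant in both lines, 5 of 8 at a mean of at least 1 RPKM in C18-4 (sum 487.4 to 653.8 RPKM) and 6 of 8 in TM4 (sum 1360 to 1920 RPKM), as were 4 of 6 markers of peritubular myoid cells in each line. No Leydig or endothelial marker reached a mean of 1 RPKM in either line, and of the macrophage markers only Cd68 did. These markers go against the label of each line in part, and the lines are therefore called by their names below.

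RefSeq promoter windows (build GRCm38.p6) ran from 250 bases before to 50 bases after the start site. They were searched here for 3 of the 9 genes, Nr0b1, Tcf21 and Fshr. One window is shown because Nr0b1 is the gene of the set that was listed at 0 in every library. Sox8 is shown with it as a close relative of Sox9, because its level ran against that of Sox9 between the lines. Each is written 5′ to 3′ on the coding strand, Nr0b1 from chrX:86191525-86191824 (plus strand) and Sox8 from chr17:25570637-25570936 (minus strand). Capitals mark the only matches to the letters searched on both strands, which were the GATA motif AGATAA, the E box CACGTG, the nuclear receptor half-site AGGTCA and the SOX motif ACAAT.
Nr0b1: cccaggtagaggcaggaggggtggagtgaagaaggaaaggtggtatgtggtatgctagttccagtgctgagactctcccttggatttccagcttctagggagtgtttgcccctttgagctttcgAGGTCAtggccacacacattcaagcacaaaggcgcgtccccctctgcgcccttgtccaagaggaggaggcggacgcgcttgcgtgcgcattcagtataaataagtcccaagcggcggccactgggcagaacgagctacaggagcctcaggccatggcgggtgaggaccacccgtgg
Sox8: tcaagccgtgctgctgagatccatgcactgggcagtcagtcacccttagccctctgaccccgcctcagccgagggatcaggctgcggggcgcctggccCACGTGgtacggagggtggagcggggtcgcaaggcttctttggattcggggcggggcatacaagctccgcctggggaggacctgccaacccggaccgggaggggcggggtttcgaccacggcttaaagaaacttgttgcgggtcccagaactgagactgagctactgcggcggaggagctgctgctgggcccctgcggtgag

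The Nr0b1 window held 1 half-site, beginning 126 bases before the start site on the coding strand, and no match to the other motifs. The Sox8 window held 1 E box, beginning 152 bases before the start site. Half-sites of these letters were found in 16.3% of the 32851 promoter windows of the same length, E boxes in 7.15%, GATA motifs in 11.2% and SOX motifs in 31% (overlaps between motifs allowed). A match describes letters in the window and not binding.

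The first comparison asked how the lines differ in these genes, over the 6 libraries of each line. Wt1 was the most abundant of the set in C18-4 cells and near 0 in TM4 cells, Gata6 was also higher in C18-4 cells, Sox9 was found at a low level in TM4 cells only, and Gata4 was present in both lines at similar levels. Nr5a1 and Nr0b1 were at or next to 0 throughout. The plot of the 6 genes by library shows all of these values.

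**Figure D1:**
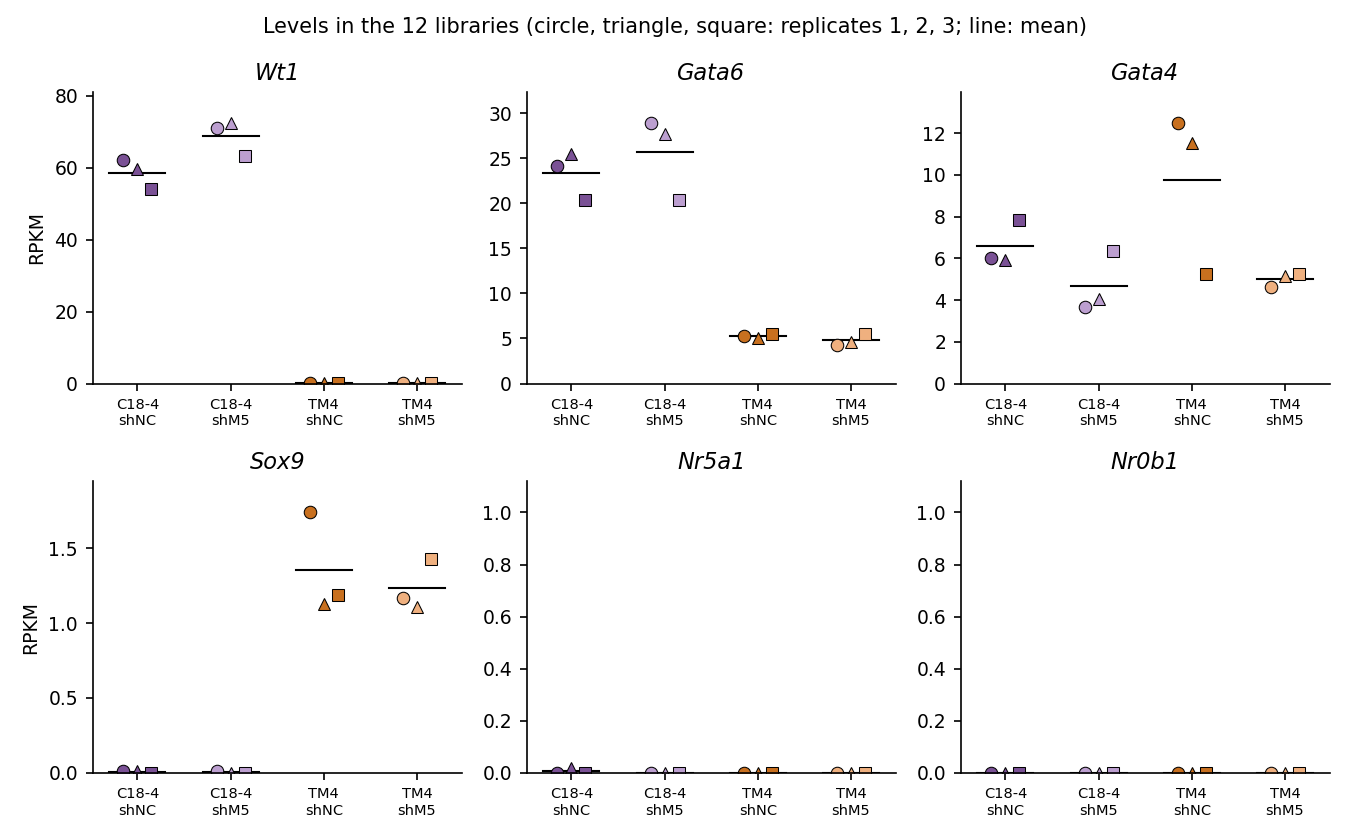
RPKM of Wt1, Gata6, Gata4, Sox9, Nr5a1 and Nr0b1 in each library, with 1 panel and 1 linear axis per gene, the 4 groups along the horizontal axis, symbols for replicates 1, 2 and 3, and a line at the group mean. Wt1 lies between 53.93 and 72.32 RPKM in C18-4 and at or under 0.15 RPKM in TM4, and Sox9 between 1.11 and 1.74 RPKM in TM4 and at or under 0.01 RPKM in C18-4.

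Wt1, which encodes a zinc finger factor of the gonadal ridge, podocytes and Sertoli cells, stood at 62.12, 59.66 and 53.93 RPKM in C18-4 shNC replicates 1 to 3 and at 70.90, 72.32 and 63.32 RPKM in C18-4 shM5. In TM4 cells it stood at 0.06, 0.08 and 0.15 RPKM with shNC and at 0.08, 0.14 and 0.08 RPKM with shM5. The lines did not overlap, and the lowest C18-4 library was above every TM4 library. Within C18-4, Wt1 was higher than 90.2 to 92.9% of the genes of the table, and within TM4 than 29.4 to 34.0%. Line means were 63.7 ± 6.94 and 0.098 ± 0.037 RPKM (SD, n = 6 libraries each), and the log2 ratio of TM4 to C18-4 was -8.34 (SE 0.124, limma, adjusted p = 1.18e-13). On the log2 scale the size of the ratio depends on the 0.1 RPKM added to each value, and it ran from -9.26 to -5.87 over all settings tried.

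Sox9, encoding the HMG box factor that commits supporting cells to the Sertoli fate, stood at 1.74, 1.13 and 1.19 RPKM in TM4 shNC and at 1.17, 1.11 and 1.43 RPKM in TM4 shM5. In C18-4 cells it was at 0.01, 0.01 and 0 RPKM with shNC and at 0.01, 0 and 0 RPKM with shM5, and 0.01 RPKM is the smallest value above 0 that the file can write. The lines did not overlap. The mean in TM4 was 1.295 ± 0.247 RPKM (SD, n = 6), higher than 42.2 to 44.8% of the genes in the same libraries, so Sox9 was a low transcript in the line where it was found. The log2 ratio was 3.72 (SE 0.134, limma, adjusted p = 1.88e-10). With C18-4 next to 0 the ratio has no fixed size, and it ran from 1.19 to 6.51 with the added constant.

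Gata6, a zinc finger factor that shares targets with GATA4 in gonadal somatic cells, was at 24.18, 25.53 and 20.35 RPKM in C18-4 shNC and at 28.90, 27.71 and 20.35 RPKM in C18-4 shM5. In TM4 cells it was at 5.31, 5.06 and 5.45 RPKM with shNC and at 4.32, 4.58 and 5.49 RPKM with shM5. All 6 C18-4 libraries lay above all 6 TM4 libraries. Line means were 24.5 ± 3.61 and 5.035 ± 0.485 RPKM (SD, n = 6), with a log2 ratio of -2.25 (SE 0.104, limma, adjusted p = 1.85e-09) and a range of -2.44 to -2.07 over the settings tried. RefSeq places the antisense transcript Gata6os at the start of Gata6. The counting is not stated to use strand, so reads of the pair cannot be told apart where they overlap.

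Gata4, the GATA factor required for formation of the gonadal ridge, was at 6.03, 5.93 and 7.84 RPKM in C18-4 shNC and at 3.67, 4.04 and 6.36 RPKM in C18-4 shM5. In TM4 cells it was at 12.48, 11.51 and 5.26 RPKM with shNC and at 4.62, 5.16 and 5.24 RPKM with shM5. TM4 shNC replicates 1 and 2 were the highest of the 12 libraries and the other 4 TM4 libraries lay within the C18-4 range. Line means were 5.645 ± 1.55 and 7.378 ± 3.6 RPKM (SD, n = 6), and the log2 ratio of 0.30 (SE 0.211, limma, adjusted p = 0.216) did not pass. Without TM4 shNC replicate 3 the log2 ratio was 0.50 (adjusted p = 0.00707), after quantile normalization 0.53 (adjusted p = 0.0291), and without replicate 3 of every group 0.66 (adjusted p = 5.58e-06). These ratios passed an adjusted p of 0.05 and stayed under the fold threshold. In those fits 79.1%, 73.5% and 86.8% of all genes tested passed an adjusted p of 0.05, and 73% did with all libraries as deposited.

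Nr5a1, encoding SF-1, was at 0.02 RPKM in C18-4 shNC replicate 2 and at 0 in the other libraries. Nr0b1, encoding the SF-1 antagonist DAX1, was at 0 in all 12. Neither could be tested across genes, and values at 0 in nearly every library allow no test of a single gene either. For the other 4 genes, an exact permutation test of the single gene (two-sided, line labels exchanged within each treatment, 400 arrangements) gave p = 0.005, the smallest it can give, for Sox9, Wt1 and Gata6, and p = 0.22 for Gata4. The related orphan receptor gene Nr5a2 was at most 0.01 RPKM in C18-4 and listed at 0 in all 6 TM4 libraries.

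A gene was called, by the threshold of the study, where its adjusted p did not exceed 0.001 and its log2 ratio was 1 or more in size. Of the 6 listed genes, 1 was called higher in TM4, 2 were called lower, 1 was tested and not called and 2 were too low to test. Over all 11773 genes tested, 26.3% were called, 9.54% higher and 16.8% lower in TM4. Sox9 entered the test only through the TM4 libraries and Wt1 only through the C18-4 libraries. The genes of the lists below that averaged under 0.5 RPKM in 1 line likewise entered only through the other line. For those next to 0 in a line, the size of the ratio depends on the 0.1 RPKM added. Between the shNC groups, with the spread taken from all 12 libraries, 26.1% of genes were called. A fit of only the 6 shNC libraries called 2265 of 11810 genes. In the fit of 12 libraries, the log2 ratios between the shNC groups were 3.75 for Sox9, -8.25 for Wt1, -2.12 for Gata6 and 0.47 for Gata4 (limma, adjusted p = 7.86e-09, 5.86e-12, 1.42e-07 and 0.185). For Gata4 this ratio turned on TM4 shNC replicate 3, without which it was 0.86 (adjusted p = 0.00322, where 73.5% of all genes passed an adjusted p of 0.05), and without replicate 3 of every group it was 0.99 (adjusted p = 4.32e-06), under the fold threshold in each. The median log2 ratio of all genes tested was -0.136. After quantile normalization it was 0.019 and the calls were split into 1506 higher and 1530 lower, against 1123 and 1978 as deposited. The calls of the members were the same in each.

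The order of the levels differed between the lines. In C18-4 cells it was Wt1, Gata6, Gata4 and then Sox9, each with all 6 libraries above those of the next, while Sox9, Nr5a1 and Nr0b1 at the bottom overlapped. In TM4 cells Gata4 came first and Gata6 next, but their libraries overlapped, followed by Sox9, Wt1 and the pair Nr5a1 and Nr0b1, which did not differ. The ratio of Gata6 to Gata4 within a library was 2.60 to 7.87 in C18-4 (mean 4.81 ± 2.09 SD, n = 6) and 0.425 to 1.05 in TM4 (mean 0.796 ± 0.289 SD, n = 6). Gata4 and Gata6 together came to 26.71 to 32.57 RPKM in C18-4 and to 8.94 to 17.79 RPKM in TM4.

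The other GATA genes were set beside them. Gata2, known from blood progenitors and also from other mesodermal tissues, was at 3.94 to 5.44 RPKM in C18-4 (median 4.865) and at 18.37 to 20.39 RPKM in TM4 (median 18.82), with no overlap and a log2 ratio of 2 (SE 0.07, limma, adjusted p = 1.44e-10). Gata3, a factor of T cells and of several epithelia, ran the other way, at 6.89 to 8.91 RPKM in C18-4 (median 7.785) and 1.17 to 3.58 RPKM in TM4 (median 1.66), with a log2 ratio of -1.95 (SE 0.222, limma, adjusted p = 8.31e-06). Gata1 was at most 0.14 RPKM in C18-4 and listed at 0 in TM4. The sum over the 5 listed GATA genes was 39.07 to 45.04 RPKM in C18-4 and 28.84 to 40.94 RPKM in TM4. Mean sums were 42.81 and 33.61 RPKM. Only TM4 shNC replicate 1, at 40.94 RPKM, reached the C18-4 range, and the other TM4 libraries were at 38.19 RPKM or less. Gata6 had the largest share in C18-4 and Gata2 in TM4. The plot of the GATA genes by library shows the levels of Gata2, Gata3, Gata4 and Gata6.

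**Figure D2:**
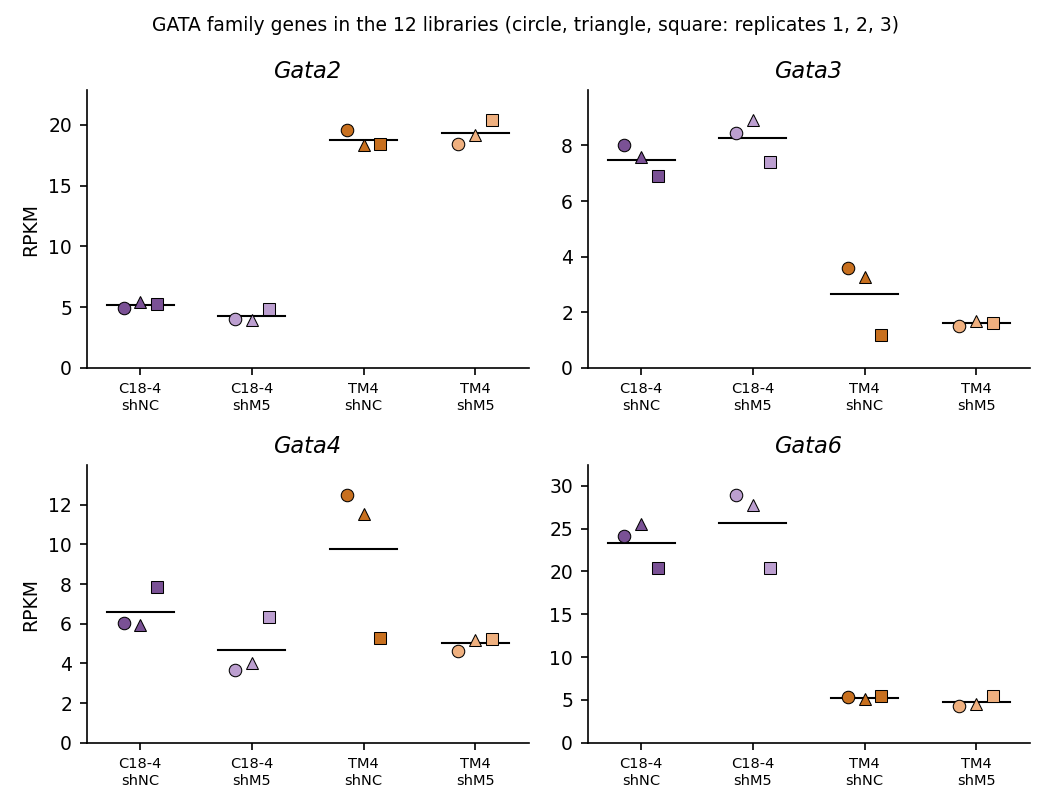
RPKM of Gata2, Gata3, Gata4 and Gata6 in each of the 12 libraries, 1 panel with its own linear axis per gene, with symbols for replicates 1, 2 and 3 and a line at the group mean. Gata2 lies at 18.37 to 20.39 RPKM in TM4 and at 3.94 to 5.44 RPKM in C18-4, Gata6 the reverse way round, and in Gata4 and Gata3 the circle and triangle of TM4 shNC stand above the other 4 TM4 values.

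GATA factors act with the cofactors FOG1 and FOG2, encoded by Zfpm1 and Zfpm2. FOG2 is the partner of GATA4 in the early testis. Zfpm2 was at 13.85 to 18 RPKM in C18-4 and at 30.08 to 55.25 RPKM in TM4, with a log2 ratio of 1.23 (SE 0.124, limma, adjusted p = 2.75e-06). Zfpm1 was at 6.69 to 9.66 RPKM in C18-4 and 1.53 to 3.03 RPKM in TM4, with a log2 ratio of -1.73 (SE 0.142, limma, adjusted p = 4.24e-07). Neither gene overlapped between the lines, and the ratio of Zfpm2 to Zfpm1 was 1.55 to 2.69 in C18-4 and 9.93 to 36.1 in TM4.

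Among the relatives of Sox9, Sox8, which can stand in for Sox9 in the testis, was present where Sox9 was not. It was at 1.89 to 2.91 RPKM in C18-4 (median 2.02) and at 0 in 5 of 6 TM4 libraries, with 0.02 RPKM in TM4 shM5 replicate 1. The log2 ratio was -4.47 (SE 0.114, limma, adjusted p = 7.9e-12). Sox8 entered the test only through the C18-4 libraries, and with TM4 next to 0 its ratio has no fixed size. Sox10, the remaining member of that subgroup, did not exceed 0.05 RPKM in C18-4 and was listed at 0 in TM4. Sox13 was at 1.20 to 2.05 RPKM in C18-4 and listed at 0 in all 6 TM4 libraries. Sox4, a broadly expressed factor of the embryonic gonad, was at 18.74 to 24.00 RPKM in C18-4 and 35.54 to 46.69 RPKM in TM4. Its log2 ratio of 1.02 (SE 0.0667, limma, adjusted p = 5.28e-08) lay at the fold threshold and fell to 0.98 without C18-4 shNC replicate 1 and to 0.995 without TM4 shM5 replicate 3.

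Of the 32 other gonadal regulators listed for this comparison, 29 had rows and 19 were tested. Higher in TM4 were 8, lower 7, and 4 were not called, with a median log2 ratio of -0.564 beside -0.136 for all genes tested. Over all genes, 26.3% were called, 9.54% higher and 16.8% lower. Emx2, a homeobox gene needed for the gonadal ridge, was at 1.34 to 2.26 RPKM in C18-4 and 21.05 to 37.58 RPKM in TM4 (log2 ratio 3.91, SE 0.117, limma, adjusted p = 3.36e-11). Lhx2, a LIM homeobox gene, was at 5.59 to 9.69 RPKM in C18-4 and at 0 in TM4 apart from 0.07 RPKM in shNC replicate 3. Its relative Lhx9, which acts upstream of Nr5a1 with WT1, was at 0.69 to 1.13 RPKM in C18-4 and listed at 0 in TM4, and was too low to test. Thus Wt1, Lhx9 and Lhx2 were found in C18-4 cells and Emx2 mainly in TM4 cells.

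The COUP-TF nuclear receptor genes Nr2f1 and Nr2f2, which mark interstitial rather than Sertoli cells in the testis, were higher in TM4. Nr2f2 was at 7.75 to 12.95 RPKM in C18-4 and 31.65 to 41.21 RPKM in TM4 (log2 ratio 1.75, SE 0.118, limma, adjusted p = 7.21e-08), and Nr2f1 was at 0.94 to 1.44 and 7.08 to 13.39 RPKM (log2 ratio 2.84). Runx1, a factor of supporting cells of the fetal gonad, was at 0.93 to 2.19 RPKM in C18-4 and 5.06 to 6.95 RPKM in TM4 (log2 ratio 2.06). The DM domain gene Dmrt2, a relative of Dmrt1, was at 2 to 4 RPKM in C18-4 and listed at 0 in TM4. The log2 ratios of these lists are shown in the plot of line ratios.

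**Figure D3:**
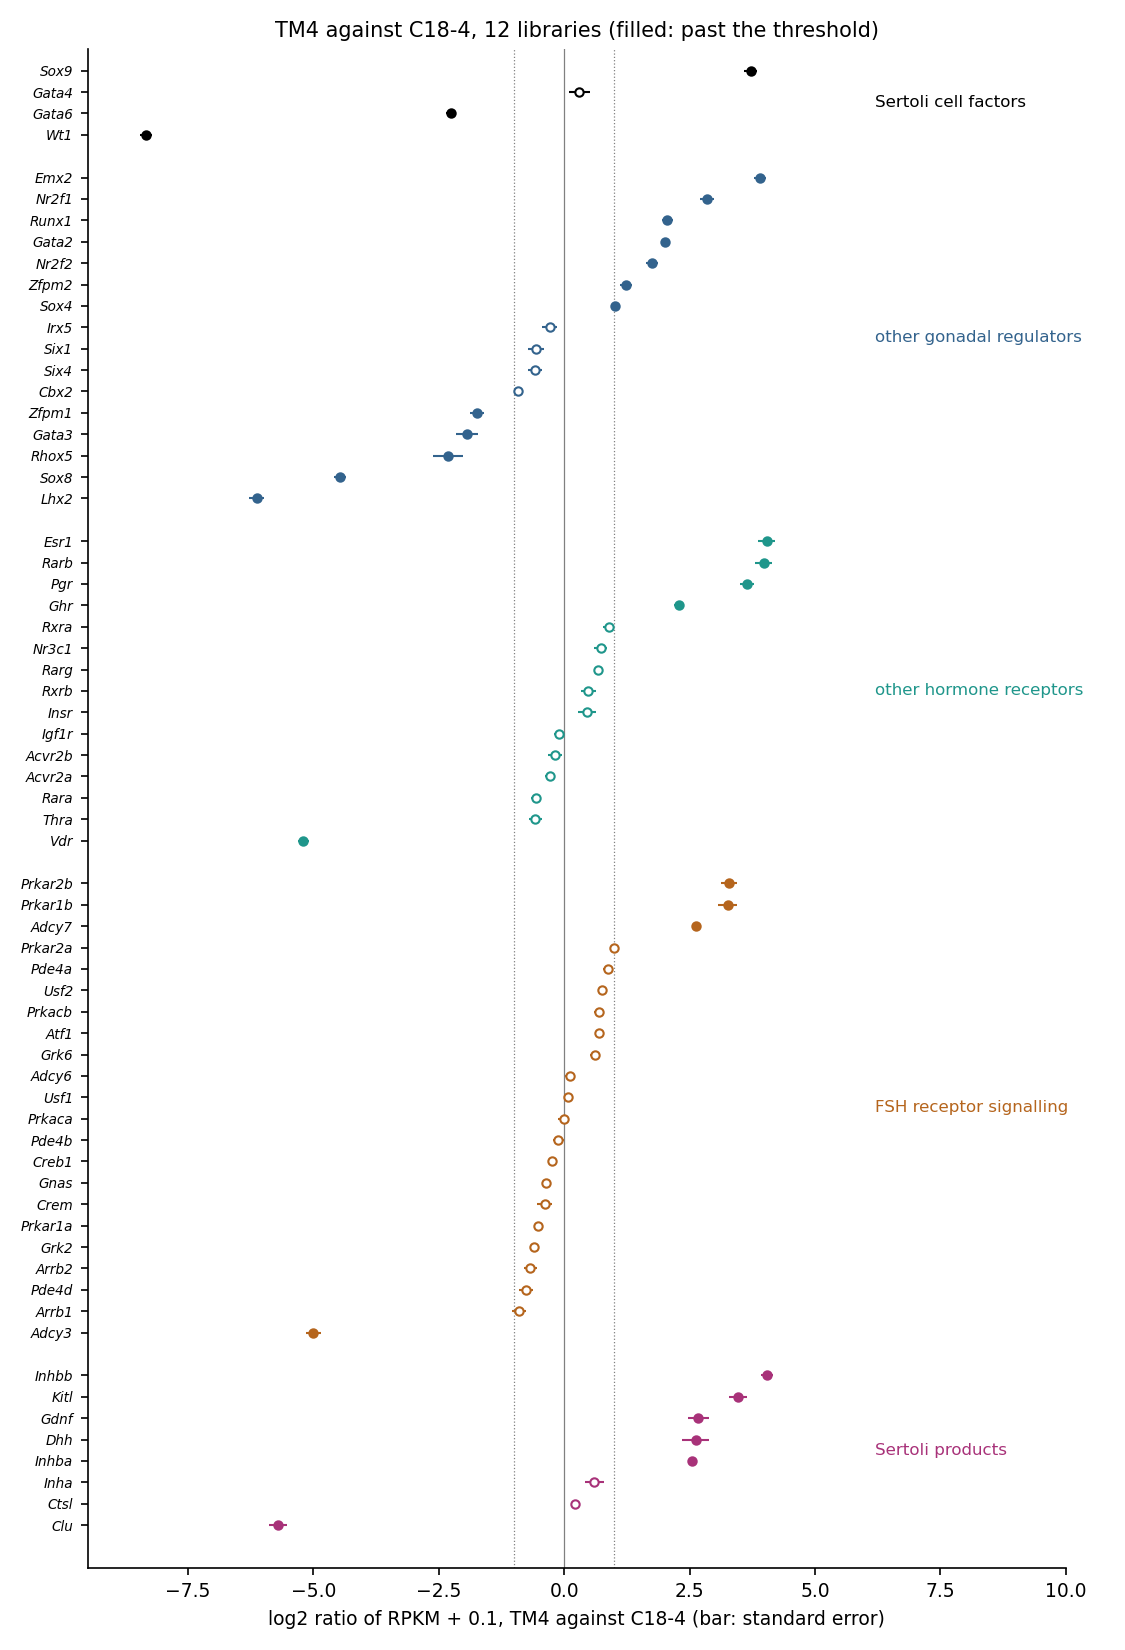
Log2 ratio of TM4 to C18-4 on the log2(RPKM + 0.1) scale for each tested gene of the Sertoli cell factors and of the 4 lists, with the standard error as a bar, dotted lines at -1 and 1, and filled points for genes past the threshold. Genes listed at 0 in all 6 libraries of a line are left out, as is 1 other gene of the gonadal regulators. Wt1 lies farthest to the left at -8.34, Sox9 at 3.72 and Gata4 next to 0 at 0.30.

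Hormone receptors formed the next group. Fshr itself was not analysed here, and its closest relatives Lhcgr and Tshr were at 0 apart from 0.01 RPKM of Lhcgr in TM4 shM5 replicate 2 and 0.03 RPKM of Tshr in C18-4 shNC replicate 2. Of 26 other receptors, 25 had rows and 16 were tested, of which 5 were called higher in TM4, 1 lower and 10 not, beside 26.3% called over all genes (9.54% higher and 16.8% lower), with a median log2 ratio of 0.578 beside -0.136. Esr1, encoding estrogen receptor alpha, was at 0.19 to 0.80 RPKM in C18-4 and 7.73 to 10.47 RPKM in TM4 (log2 ratio 4.03, SE 0.173, limma, adjusted p = 9.25e-10). Ghr, the growth hormone receptor gene, was at 3.92 to 5.58 and 22.28 to 27.27 RPKM (log2 ratio 2.28). Vdr, encoding the vitamin D receptor, was the one that was lower, at 17.33 to 21.36 RPKM in C18-4 and 0.25 to 0.64 RPKM in TM4 (log2 ratio -5.20, SE 0.109, limma, adjusted p = 1.46e-12). Pgr and Rarb, encoding receptors of progesterone and retinoic acid, were below the level set for naming and are named because of their values. Pgr was at 0.85 to 1.43 RPKM and Rarb at 1.49 to 2.32 RPKM in TM4, and neither exceeded 0.07 RPKM in C18-4.

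Next came the genes of the pathway downstream of the FSH receptor. Of 23 genes, all had rows and 22 were tested, of which 3 were called higher in TM4, 1 lower and 18 not, beside 26.3% called over all genes. The median log2 ratio was 0.029 beside -0.136. At an adjusted p under 0.05, 18 of the 22 genes differed, beside 73% of all genes. Gnas, encoding the stimulatory G protein subunit, was at 810.36 to 891.23 RPKM in C18-4 and 614.81 to 692.19 RPKM in TM4, and Creb1, a transcription factor that protein kinase A activates, at 10.99 to 13.84 and 9.60 to 12.27 RPKM. Adcy7, an adenylyl cyclase gene, was at 1.81 to 3.52 RPKM in C18-4 and 14.74 to 19.75 RPKM in TM4 (log2 ratio 2.63, SE 0.0723, limma, adjusted p = 1.62e-11). Prkar2b, encoding a regulatory subunit of protein kinase A, was at 1.37 to 2.44 and 11.49 to 21.75 RPKM (log2 ratio 3.29, SE 0.16, limma, adjusted p = 3.16e-09). The other 2 called genes had lower levels and are named because of their values. Prkar1b was at 0.05 to 0.20 RPKM in C18-4 and 1.82 to 2.59 RPKM in TM4, and the cyclase gene Adcy3 was at 3.62 to 5.88 RPKM in C18-4 and at most 0.07 RPKM in TM4. Usf1 and Usf2 encode factors that bind E boxes, among them that of the Fshr promoter. Usf1 was at 21.12 to 23.24 RPKM in C18-4 and 21.97 to 24.03 RPKM in TM4, with a log2 ratio of 0.07 (adjusted p = 0.214, limma), and Usf2 had a log2 ratio of 0.75 (adjusted p = 7.21e-08), under the fold threshold.

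Of 17 secreted or junction products of Sertoli cells, 15 had rows and 8 were tested, of which 5 were called higher in TM4, 1 lower and 2 not, beside 26.3% called over all genes, with a median log2 ratio of 2.59 beside -0.136. Inhbb and Inhba encode the beta subunits of activin and inhibin. Inhbb was at 0.52 to 1.23 RPKM in C18-4 and 11.97 to 16.76 RPKM in TM4 (log2 ratio 4.04, SE 0.127, limma, adjusted p = 5.64e-11), and Inhba at 4.12 to 5.86 and 25.30 to 33.59 RPKM (log2 ratio 2.55). The ligands for spermatogonia Kitl (stem cell factor) and Gdnf were higher in TM4, Kitl at 2.06 to 2.93 RPKM in C18-4 and 18.42 to 49.50 RPKM in TM4 (log2 ratio 3.47), and Gdnf at 0.36 to 1.14 and 2.52 to 9.67 RPKM (log2 ratio 2.67). Clu ran the other way, at 5.55 to 10.48 RPKM in C18-4 and at most 0.07 RPKM in TM4 (log2 ratio -5.71, SE 0.179, limma, adjusted p = 5.32e-11). Dhh, the fifth called higher, was below the level set for naming, at 0.57 to 1.60 RPKM in TM4 and 0.03 to 0.16 RPKM in C18-4. The median covers the tested genes only. Listed but too low to test were Amh, Trf, Fgf9, Ptgds, Cldn11, Shbg and Aard. In TM4, Trf, Ptgds and Aard were at 0 in all libraries. The highest TM4 values were 0.03 RPKM for Cldn11, 0.14 for Shbg, 0.19 for Amh and 0.28 for Fgf9. In C18-4 none of these genes exceeded 1.10 RPKM.

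The genes with the most similar profiles over the 12 libraries were found as those with the smallest root mean square difference of centred log2(RPKM + 0.1) values, among 4201 candidates. For Sox9 they were LOC108168148 (0.153), Nhs (0.183) and D330045A20Rik (0.184), all near 0 in C18-4. Nhs, for example, was at 1.17 to 1.27 RPKM in TM4. For Wt1 they were Gsta1 (0.277), whose reads may be shared with other glutathione transferase genes, Stag3 (0.297), a meiotic cohesin gene, and St6galnac2 (0.310). Stag3 was at 35.74 to 54.31 RPKM in C18-4 and at most 0.03 RPKM in TM4. For Gata6 they were Alad (0.162), Cntf (0.174) and Sema3c (0.177). For Gata4 they were Phf10 (0.124), Prelid3a (0.197) and Zfp622 (0.200). Phf10, a chromatin remodelling subunit gene, was at 248.14 and 255.64 RPKM in TM4 shNC replicates 1 and 2 and at 92.61 to 101.16 RPKM in the other 4 TM4 libraries, so that it shared with Gata4 the same high pair of libraries. These are likenesses over libraries of 2 lines, and the step between the lines sets most of them for Sox9, Wt1 and Gata6.

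The second comparison asked whether M5 knockdown changed these genes within each line. The study applied its threshold to another test, that of the DEGseq package, and reported changed genes in both lines. Here the same cut-offs were put on a limma fit of RPKM, so the counts below cannot be set beside those of the study. In C18-4 cells, no gene of 11611 tested passed the study's threshold, and 0.586% passed an adjusted p of 0.05 (limma, 68 genes, with 1425 at an unadjusted p under 0.05). None of the 3 tested members, Wt1, Gata4 and Gata6, was among them. Wt1 was higher in all 3 shM5 libraries than in all 3 shNC libraries, with means of 68.9 ± 4.84 and 58.6 ± 4.2 RPKM (SD, n = 3 each) and a log2 ratio of 0.23 (SE 0.0859, limma, adjusted p = 0.339). Gata4 had means of 4.69 ± 1.46 and 6.60 ± 1.08 RPKM, with overlap between the groups and a log2 ratio of -0.51 (SE 0.223, adjusted p = 0.418), and Gata6 had a log2 ratio of 0.12 (SE 0.154, adjusted p = 0.837).

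Libraries of the same replicate number deviated together in C18-4, and in both treatments replicate 3 was the lowest for Wt1 and Gata6 and the highest for Gata4. With the replicate number as a block, the log2 ratios were the same and the errors smaller, so that Wt1 (SE 0.047, limma, adjusted p = 0.0202) and Gata4 (SE 0.1, adjusted p = 0.0181) passed an adjusted p of 0.05, as did 11.9% of all 11611 genes (605 higher and 781 lower), and Gata6 did not (adjusted p = 0.244). Both stayed under the fold threshold. Without replicate 3 of every group, Wt1 (0.23, adjusted p = 0.00363), Gata4 (-0.62, adjusted p = 0.00187) and Gata6 (0.19, adjusted p = 0.0277) passed an adjusted p of 0.05, beside 26.2% of all genes tested. The summed peritubular myoid, interstitial mesenchyme and germ line markers were higher with the knockdown in this line, though not every marker of a list moved. The summed level of the 6 peritubular myoid markers was 61.9 to 77.89 RPKM with shNC and 113.4 to 158.2 RPKM with shM5, and in the blocked fit Acta2 had a log2 ratio of 1.34 (limma, adjusted p = 0.000608). The sum of the 8 interstitial mesenchyme markers was 487.4 to 554.5 and 575.8 to 653.8 RPKM, and that of the 12 listed germ line markers, mostly Uchl1, 78.86 to 122 and 124.6 to 143.8 RPKM. Of the markers at a mean of at least 1 RPKM, Acta2, Tagln, Col3a1 and Uchl1 were higher in every shM5 library than in every shNC library. Des, Cnn1, Pdgfra, Col1a1, Dcn, Nr2f2 and Id4 overlapped between the treatments. Below that level, Gfra1 (at most 0.34 RPKM) was lower in every shM5 library and Lin28a (at most 0.04 RPKM) higher. Lum, Kit and Stra8 of these lists were at 0 in this line. The sums of the remaining lists were low and overlapped between the treatments. With shNC and shM5, Leydig markers summed to 0.61 to 0.87 and 0.84 to 1.16 RPKM. Endothelial markers summed to 0.95 to 1.24 and 1.09 to 1.19 RPKM, and macrophage markers to 2.4 to 4.48 and 2.06 to 2.64 RPKM. The part of these markers in the ratios of Wt1 and Gata4 was not tested. Every shM5 library was below the shNC library of its number for Gata4, at 3.67 against 6.03, 4.04 against 5.93 and 6.36 against 7.84 RPKM. Sox9 was too low to test in this line.

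In TM4 cells no gene of 11016 tested passed the study's threshold or an adjusted p of 0.05 (limma, 0%, with 2866 at an unadjusted p under 0.05). Gata4 had means of 5.01 ± 0.337 RPKM with shM5 and 9.75 ± 3.92 RPKM with shNC (SD, n = 3 each). All 3 shM5 libraries were below all 3 shNC libraries, but shNC replicate 3, at 5.26 RPKM, was only just above the highest shM5 library at 5.24 RPKM. The log2 ratio was -0.85 (SE 0.323, limma, adjusted p = 0.192). Without TM4 shNC replicate 3 it was -1.24 (SE 0.0842, limma, adjusted p = 1.13e-05), past the study's threshold, as one of 896 genes (8.13% of those tested), so the call for Gata4 turned on this 1 library. Zfpm2 had the same high pair, at 54.21 and 55.25 RPKM in shNC replicates 1 and 2, against 33.04 RPKM in shNC replicate 3 and 30.08 to 31.62 RPKM with shM5, as had Kitl, at 49.50 and 49.41 RPKM against 22.73 and 18.42 to 21.99 RPKM. Markers of peritubular myoid cells and of interstitial mesenchyme also moved with the pair. Of 6 peritubular myoid markers, 4 (Acta2, Cnn1, Tagln and Actg2) were lower in shNC replicates 1 and 2 than in the other 4 TM4 libraries and none was higher, with summed levels of 131.4 and 126.1 RPKM against 240.4 to 362.5 RPKM. Of 8 interstitial mesenchyme markers, 4 (Pdgfra, Col1a1, Col1a2 and Col3a1) were lower in the pair and 1 (Nr2f2) was higher, with summed levels of 1370 and 1360 RPKM against 1386 to 1920 RPKM. The part of these markers in the result for Gata4 was not tested.

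Sox9 and Gata6 showed no such step in TM4. Sox9 had means of 1.24 ± 0.17 RPKM with shM5 and 1.35 ± 0.336 RPKM with shNC and a log2 ratio of -0.10 (SE 0.215, limma, adjusted p = 0.73), with overlap between the groups. Gata6 had means of 4.80 ± 0.614 and 5.27 ± 0.198 RPKM and a log2 ratio of -0.14 (SE 0.122, adjusted p = 0.41). Without replicate 3 of every group it was -0.22 (adjusted p = 0.0459), in a fit where 72.7% of all genes passed an adjusted p of 0.05. Wt1 was too low to test, with 0.08 to 0.14 RPKM in shM5 and 0.06 to 0.15 RPKM in shNC. The plot of knockdown ratios sets the estimates with and without replicate 3 of shNC side by side.

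**Figure D4:**
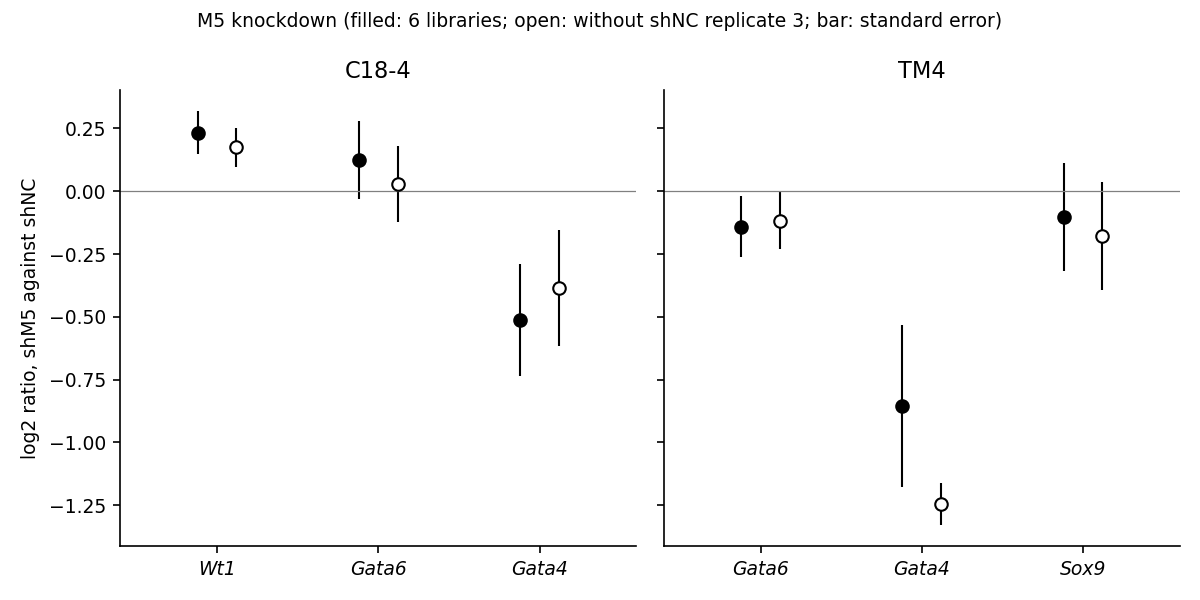
Log2 ratio of shM5 to shNC on the log2(RPKM + 0.1) scale for the members tested in each line, C18-4 on the left and TM4 on the right, with filled points for all 6 libraries, open points for the fit without shNC replicate 3 and the standard error as a bar. Gata4 in TM4 moves from -0.85 to -1.24 and its bar shrinks from 0.323 to 0.0842 when that library is left out.

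The difference of the knockdown effect between the lines was tested in the fit of all 12 libraries. It was -0.34 for Gata4 (SE 0.422, limma, adjusted p = 0.634), -0.27 for Gata6 (SE 0.207, adjusted p = 0.442), -0.20 for Wt1 (SE 0.249, adjusted p = 0.643) and -0.06 for Sox9 (SE 0.268, adjusted p = 0.905) on the log2 scale. None passed, beside 12 of 11773 genes (0.102%) that passed an adjusted p of 0.05. Without TM4 shNC replicate 3 the difference for Gata4 was -0.73 (adjusted p = 0.0618). Without replicate 3 of every group, Gata4 (-0.66, adjusted p = 0.00172) and Gata6 (-0.40, adjusted p = 0.00357) passed an adjusted p of 0.05, beside 59.9% of all genes tested. In the 4 other lists no gene passed the study's threshold for the knockdown in either line or for the difference between the lines.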

How the data were processed

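RNA was sequenced from 12 libraries, 3 in each of 4 groups, and each column was matched to its library by name. The authors enriched mRNA with oligo(dT), sequenced it on an Illumina HiSeq, mapped reads with SOAPaligner and deposited RPKM with 2 decimals for 17995 genes. Genome build and annotation are not given in the sources used here. RPKM holds no read numbers, and count tests were not used. Low values fell within 0.12 of whole steps in 125 of 821 genes examined, too few to recover reads, with relative steps of 0.975 to 1.02 between libraries. In 38 of these genes, with 1 GENCODE transcript each, the step gave a rough depth of 1.3e+07 mapped reads (quartiles 1.19e+07 and 1.42e+07).

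log2(RPKM + 0.1) was fitted with limma (version 3.58.1, R 4.3.3; lmFit, eBayes with trend) for genes that averaged 0.5 RPKM or more in the fit's libraries, with Benjamini-Hochberg adjustment over all genes tested and the study's threshold. Line comparisons and the interaction used all 12 libraries and knockdown comparisons the 6 of a line. The fits were tested on simulated data in which 200 genes were changed. The members and gene lists were chosen with earlier results of these data known. Named list genes were those past the threshold between the lines that averaged 5 RPKM or more in the higher line, and relatives or cofactors of the members; some list genes are counted but not reported here by name. Alternatives were the pseudocount (0.01 or 1), the filter (none, or 2 RPKM), rescaling, quantile normalization, no trend, a replicate block and leaving out libraries.

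Same-numbered libraries deviated together in C18-4 (correlations of deviations from group means 0.439, 0.409 and 0.631 for numbers 1 to 3), so the blocked values are given there. Number 1 with number 2 correlated nearly as well, at 0.341 and 0.345, and number 3 with number 1 or 2 at -0.514 to -0.467. The deviation was thus mostly that of replicate 3 from replicates 1 and 2, and a pairing of numbers 1 and 2 is weakly founded. The pairing comes from the data and the shared numbers, not from a stated batch.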

Additional observations from a re-analysis of the deposited data

How the results depend on the processing

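The calls of Sox9, Wt1 and Gata6 between the lines were the same under every alternative in which they were tested (Sox9 was not, with the filter at 2 RPKM), and Gata4 was never called there. In C18-4, 0 genes were called for the knockdown, 9 with the replicate block and 0 to 54 when libraries were left out, the highest without replicate 3 of every group. In TM4, 0 were called, 0 with the replicate block and 0 to 1021 when libraries were left out, 896 without shNC replicate 3 and 1021 without replicate 3 of each group. For the difference between the lines the range was 0 to 1047, with 552 without TM4 shNC replicate 3. Gata4 in TM4 was then -1.24 to -1.28 (log2). Same-numbered TM4 libraries correlated at 0.0729, 0.0489 and 0.127, and not every library correlated best with its own number, so the numbers were not taken to pair TM4 libraries. With the replicate block 3060 genes were called between the lines, against 3101. The block changed no call of a member, though Wt1 and Gata4 in C18-4 then passed an adjusted p of 0.05.

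Rescaling each library to the same total (1e+06) moved the mean levels, to 122.4 for Wt1, 10.85 for Gata4 and 47.01 for Gata6 in C18-4, and to 0.185 for Wt1, 2.45 for Sox9, 14.05 for Gata4 and 9.52 for Gata6 in TM4. After quantile normalization, the line ratio of Acvr2b turned from -0.18 to 1.04 (1.27 in shNC libraries) and that of Star from -0.09 to 1.20, and Rhox5 fell under the threshold at -1.18. Dhh did so at 0.95 with a pseudocount of 1. The cause was not tested. Without read numbers, values near 0.01 RPKM cannot be told from 0.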
